A study of Mus musculus with 2 samples.

Results

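The 7 genes followed here belong to the osteoclast fusion and resorption programme and were read across the cells of mouse pancreatic tumours: Dcstamp, Ocstamp, Atp6v0d2, Acp5, Ctsk, Nfatc1 and Tnfrsf11a, which are 7 of the 32285 genes in the count tables. They were chosen by their known place in osteoclast formation together with levels already measured in these same cells, so their levels and ratios below are a description and carry no test. All 7 were found by gene symbol in both libraries, and all 7 passed the minimum of 50 summed counts in macrophage-like cells. The study compared tumours of KPPC mice, a genetically engineered model of pancreatic ductal cancer that the labels name without listing its alleles, given vehicle or takinib, an inhibitor of the kinase TAK1. The mice were 6 weeks old, takinib was given at 50 mg/kg, and treatment lasted 14 days. Each group was 1 library of dissociated tumour cells, and the number and sex of the mice in a library are not stated. Since a group is a single library, the 2 treatments could not be tested against each other, nothing below is replicated, and library and treatment cannot be told apart. Square brackets hold 95% intervals that cover counting error only.

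Osteoclasts are the multinucleated cells that resorb bone, and they form by fusion of cells of the monocyte and macrophage lineage. The cytokine RANKL, encoded by Tnfsf11, binds its receptor RANK, encoded by Tnfrsf11a, and signals through TRAF6 and TAK1 to NF-kB and AP-1, which raise the transcription factor NFATc1. NFATc1 in turn drives the fusion genes Dcstamp and Ocstamp, the proton pump subunit gene Atp6v0d2 and the resorption enzymes Acp5 (tartrate-resistant acid phosphatase) and Ctsk (cathepsin K). Parts of this programme are also used by macrophages outside bone, by foreign-body and other giant cells, and, in the case of Ctsk, by fibroblasts.

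After filtering, 9558 vehicle and 25183 takinib cells were kept, with medians of 3556 and 2887 UMIs (unique molecular identifiers, each counting 1 captured transcript). Levels are given as CPM, a gene's UMIs per 1000000 summed UMIs of a group of cells, and they are compared within a gene only. Of 27 clusters, made without the 7 genes and without the related gene lists, 6 were macrophage-like by their markers and held 4974 vehicle and 6374 takinib cells; each had 7 to 12 of the 12 macrophage markers detected. The libraries differed in more than treatment. In macrophage-like cells the 9 neutrophil markers together reached 374 CPM (vehicle) and 7765 CPM (takinib), and all 9 were detected in each library. The takinib library held 7611 neutrophil-like cells against 19 in vehicle, and 4586 cells of an unnamed cluster led by Chil1 and Lcn2 against 0. Of the neutrophil-like cells, 679 lay in a cluster led by Camp, Ngp, Elane and Mpo, against 11 in vehicle. Erythroid-like cells numbered 464 in takinib against 1 in vehicle. Clusters with stomach genes (Gkn2, Gkn1, 216 cells) and intestinal genes (Prap1, Alpi, 70 cells) among their leading genes had no vehicle cell. Median mitochondrial UMIs per cell made up 8.70% (vehicle) and 1.79% (takinib), and 12 epithelial markers together reached 265 and 2095 CPM in macrophage-like cells. The part of these differences in the results below was not tested, and 359 cell barcodes occurred in both libraries. Of vehicle macrophage-like cells, 559 had Xist and no Y-linked UMI, and 1388 had a Y-linked UMI and no Xist. The same split is not given for takinib cells, and sex cannot be told apart from treatment.

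Macrophage-like cells held most of the UMIs of 5 of the 7 genes in both libraries. Their share of the UMIs of all genes was 51.5% in vehicle and 37.3% in takinib. For Dcstamp their share of the library's UMIs was 95.7% in vehicle and 86.0% in takinib, for Atp6v0d2 93.6% and 89.5%, for Acp5 92.8% and 78.9%, for Ocstamp 91.1% and 62.6%, and for Tnfrsf11a 73.3% and 73.5%. Nfatc1, which also acts in lymphocytes, was spread wider, with 53.1% and 34.9%, near the share of the class in all UMIs. Among named classes its level was highest in T-like cells of vehicle (112 CPM [80.2, 153]) and B-like cells of takinib (88.3 CPM [77.7, 100.1]). Takinib dendritic-like cells, described further on, were left aside in this. Ctsk lay in different classes in the 2 libraries. In vehicle 60.8% of its UMIs lay in fibroblast-like, 17.7% in perivascular-like and 18.0% in macrophage-like cells, while in takinib 75.6% lay in macrophage-like cells. The classes also differed in size, with 593 perivascular-like cells in vehicle and 13 in takinib, and 642 and 315 fibroblast-like cells. Fibroblast-like cells had 348 CPM [327, 371] of Ctsk with vehicle and 89.4 CPM [79.8, 99.8] with takinib, so it was lower there and higher in macrophages. Set against fibroblast RNA, takinib macrophage-like cells had 9922 Ctsk UMIs per 1000 UMIs of the collagens Col1a1 and Col3a1, and fibroblast-like cells 8.14. In vehicle the values were 169 and 16.9. Other takinib classes also stood above 8.14, among them T-like cells at 240, neutrophil-like cells at 328 and B-like cells at 524.

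**Figure D1:**
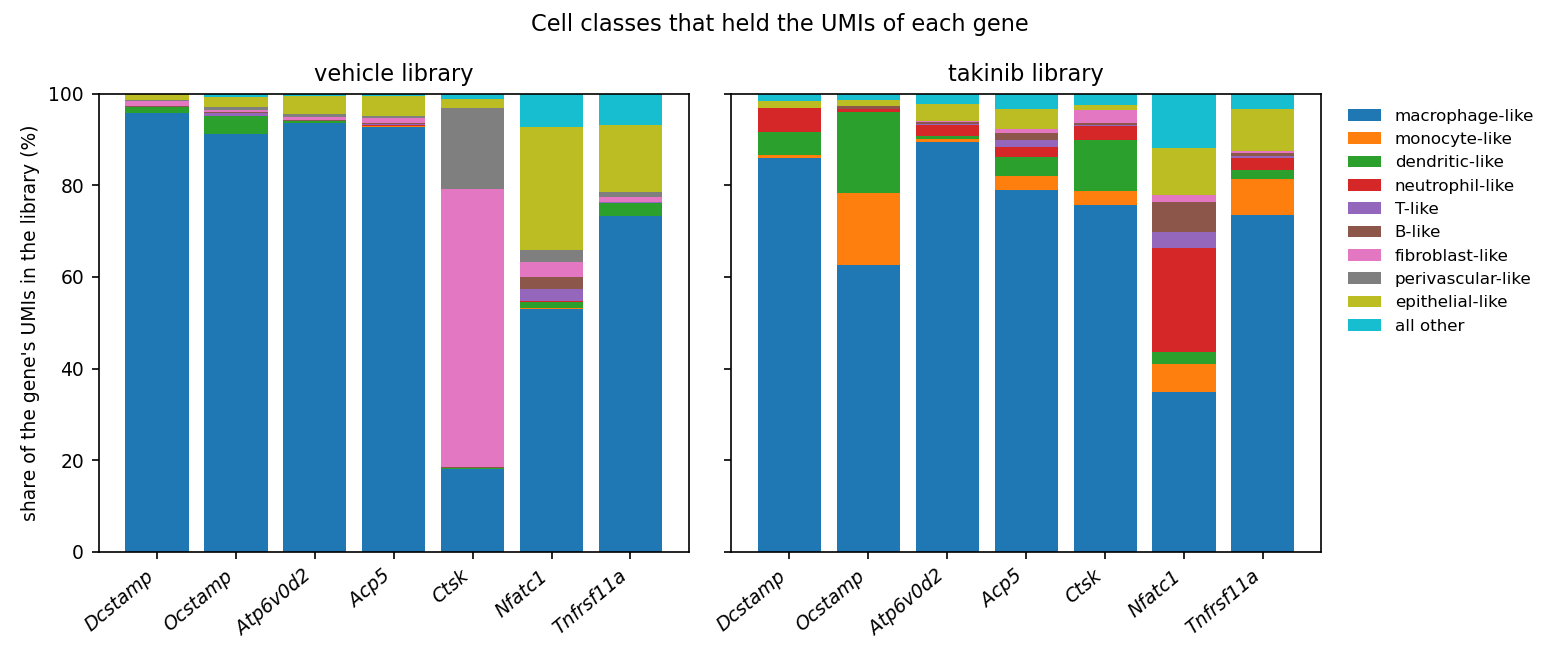
Share of each gene's UMIs (%, vertical axis) held by each cell class, in the vehicle library (left) and the takinib library (right); each bar is 1 gene and sums to the whole library. The Ctsk bar is mostly fibroblast-like and perivascular-like in vehicle and 75.6% macrophage-like in takinib.

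The 6 macrophage-like clusters differed in which of the genes they held. Leaving the 7 genes aside, cluster 0 was led by the antigen presentation genes H2-Ab1, H2-Eb1, H2-Aa and Cd74 (2939 vehicle and 464 takinib cells), cluster 1 by Chil3, Lpl, Car4 and Ear2, genes known from alveolar macrophages (689 and 1515 cells), and cluster 2 by Trf, Apoe, Alox15 and C1qa (1305 and 260 cells). The other 3 were almost wholly takinib cells: cluster 3, with leading genes Gpnmb, Fabp5, Mmp12 and Marco (11 and 948 cells), cluster 4, with Saa3, F13a1, Ptges and Arg1 among its leading genes (2 and 2328 cells), and cluster 5, with Gpnmb, Ccl8, Selenop and Cxcl13 among them (28 and 859 cells). Cluster 0 made up 59.1% of vehicle and 7.28% of takinib macrophage-like cells. For clusters 3, 4 and 5 levels are given for takinib only, since under 100 vehicle cells were present.

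Dcstamp encodes the transmembrane protein required for osteoclast and giant cell fusion (chromosome 15, 39745930 to 39760938, GRCm38). Over all macrophage-like cells its vehicle level was 206 CPM [199.6, 212] and its takinib level 17.0 CPM [15.8, 18.2] with takinib, a log2 ratio (takinib over vehicle, 10 CPM added to both) of -3.00 [-3.07, -2.92]. In vehicle it was highest in the class II-high cluster 0, at 289 CPM, where 43.9% of cells had a UMI, and lower in cluster 2 at 88.6 CPM and cluster 1 at 71.0 CPM. In takinib the same clusters had 46.1, 10.49 and 17.2 CPM. Clusters 3 and 4 had 16.7 and 18.6 CPM, and in cluster 5 Dcstamp was nearly undetected, with 4 UMIs in 859 cells. The order of the clusters was thus led by cluster 0 in both libraries, and each of the 3 shared clusters was lower in takinib. The log2 ratios within them were -2.41 [-2.63, -2.20] in cluster 0, -1.58 [-1.79, -1.37] in cluster 1 and -2.27 [-2.62, -1.91] in cluster 2. In cells that should lack the gene, Dcstamp was at 11.2 CPM (4 UMIs) in T-like and 16.9 CPM (7 UMIs) in B-like cells of vehicle, against 0 UMIs and 1 UMI in those of takinib. Vehicle barcodes of 1 to 100 UMIs held 90.4 CPM; free RNA could not be read in takinib. Against only the 559 vehicle macrophage-like cells with Xist and no Y-linked UMI the Dcstamp ratio was -1.79, and that of Ocstamp, described next, -0.38 in place of -0.85; takinib cells were taken as a whole, and 1388 vehicle macrophage-like cells had a Y-linked UMI and no Xist.

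Ocstamp, the partner of Dcstamp in osteoclast fusion (chromosome 2, 165393760 to 165400405), was sparse and had its highest macrophage-like level in cluster 0. It was 18.9 CPM [16.6, 21.5] there in vehicle and 16.6 CPM [12.1, 22.2] in takinib, and at most 2.52 CPM in any other macrophage-like cluster of either library with at least 100 cells. Cluster 0 held 95.7% of the macrophage-like Ocstamp UMIs in vehicle and 48.9% in takinib, where cluster 1 held 27.2% and cluster 3 19.6%. Of all takinib Ocstamp UMIs, 17.7% lay in dendritic-like and 15.6% in monocyte-like cells. Over all macrophage-like cells it stood at 11.8 CPM (vehicle) and 2.06 CPM (takinib), a log2 ratio of -0.85 [-0.96, -0.75]. That value hangs on the 10 CPM added, and with 1 CPM added it was -2.06. Within cluster 0 the ratio, with 10 CPM added, was -0.12 [-0.41, 0.17]. Both fusion genes were thus highest in cluster 0; the interval of the Ocstamp ratio there included 0, and that of Dcstamp did not.

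Atp6v0d2 encodes the d2 subunit of the acid-secreting proton pump and is needed for fusion (chromosome 4, 19876841 to 19922605). The gene is also known from alveolar macrophages. It followed another order, with cluster 1 highest (404 CPM [383, 425] in vehicle and 571 CPM [556, 586] in takinib), followed in takinib by cluster 3 at 389 CPM and cluster 5 at 328 CPM. Clusters 0, 2 and 4 had 178, 175 and 88.6 CPM in takinib, and clusters 0 and 2 had 68.9 and 87.2 CPM in vehicle; the intervals of clusters 0 and 2 in takinib overlapped. Over all macrophage-like cells it stood at 128 CPM (vehicle) and 290 CPM (takinib), a ratio of 1.12 [1.07, 1.18]. Within the shared clusters the ratio was 1.25 [1.10, 1.40], 0.49 [0.41, 0.57] and 0.93 [0.74, 1.12] in clusters 0, 1 and 2. Against the 559 vehicle cells with Xist and no Y-linked UMI the ratio turned to -0.31. It was past 2-fold in 11 of the 16 alternatives tried, where Dcstamp and Ctsk were past it in all 16.

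**Figure D2:**
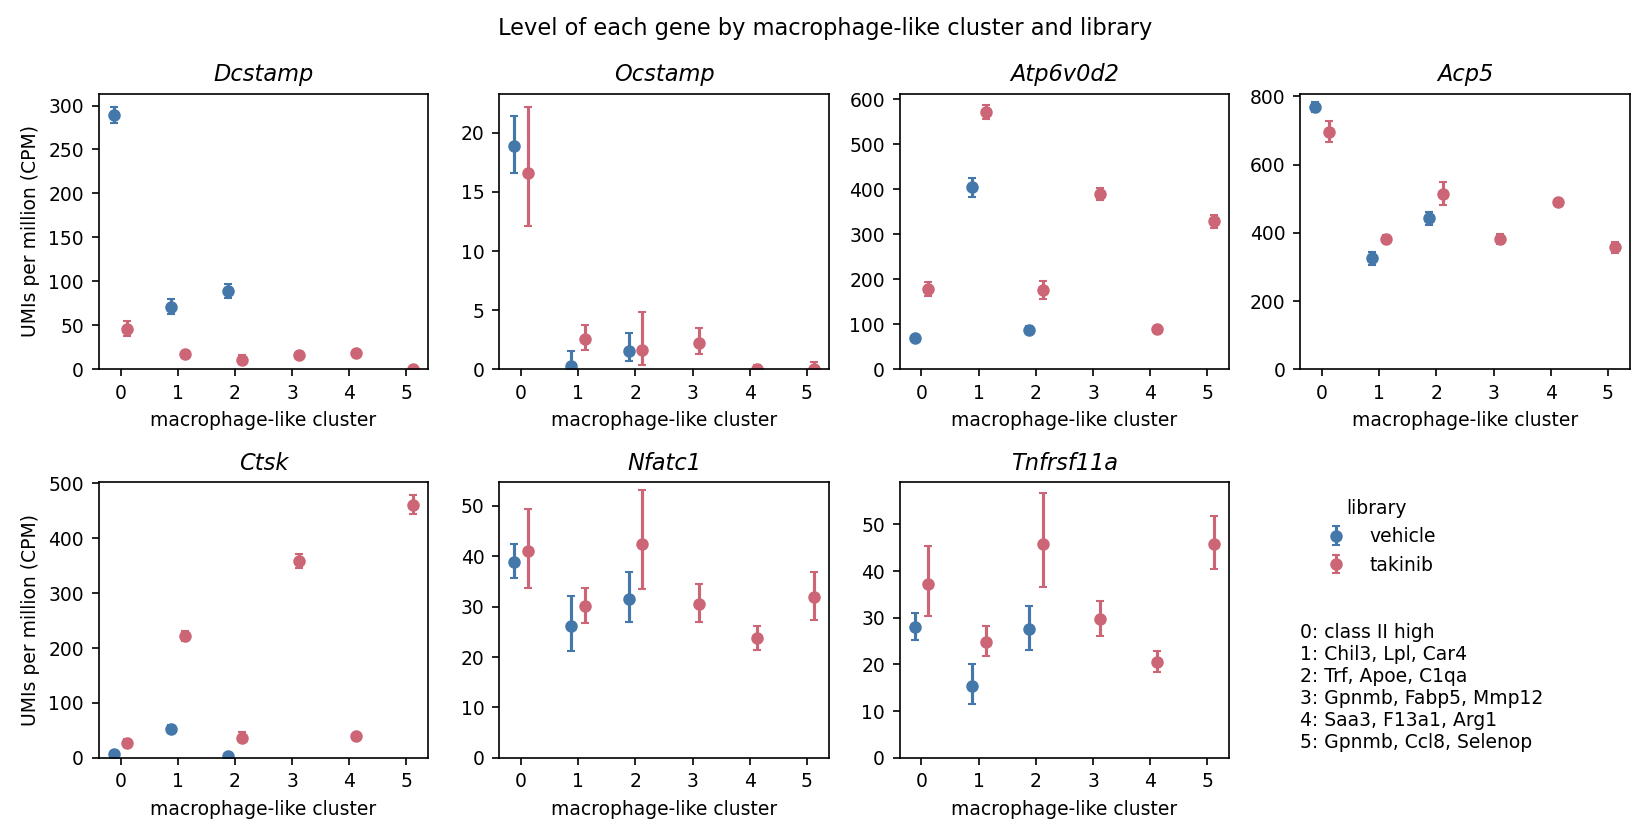
Level of each of the 7 genes (CPM, vertical axis, each panel on its own scale from 0) in the 6 macrophage-like clusters (horizontal axis) of the vehicle and takinib libraries; points are summed UMIs, bars are exact Poisson 95% intervals, and units under 100 cells are left out. Dcstamp, Ocstamp and Acp5 peak in cluster 0, Atp6v0d2 in cluster 1 and Ctsk in clusters 5 and 3, while Nfatc1 and Tnfrsf11a stay at or below 45.8 CPM.

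Acp5 (chromosome 9, 22126727 to 22135711) had UMIs in every macrophage-like cluster. Over all of them the vehicle level was 618 CPM [608, 629] and the takinib level 442 CPM [436, 448] (-0.47 [-0.51, -0.44]), and 74.5% and 73.3% of cells had a UMI. Thinned to 1000 UMIs per cell the shares were 41.0% and 30.01%, against 15.9% and 17.1% of T-like cells. T-like cells had 157 and 172 CPM at median depths of 1359.5 and 1684.5 UMIs, takinib neutrophil-like cells had 23.7 CPM, and vehicle barcodes of 1 to 100 UMIs had 219 CPM. Acp5 was highest in cluster 0, at 769 CPM in vehicle and 696 CPM in takinib, and lowest in vehicle cluster 1, at 326 CPM. Within clusters 0, 1 and 2 its ratio was -0.14 [-0.21, -0.07], 0.22 [0.13, 0.31] and 0.21 [0.11, 0.32], and the mean of the 3 was 0.10. The difference over the whole class was thus not found within clusters 1 and 2. Against the 559 vehicle cells with Xist and no Y-linked UMI the class-wide ratio turned to 0.051.

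Ctsk (chromosome 3, 95499256 to 95509362) was higher in takinib. Macrophage-like cells had 12.9 CPM [11.5, 14.6] with vehicle and 192 CPM [188, 196] with takinib (3.14 [3.04, 3.24]), with a UMI in 2.61% and 18.2% of cells; in takinib neutrophil-like cells the share was 3.72%, and median depths were 3918, 6203.5 and 2273 UMIs. In takinib it was highest in the Gpnmb-led clusters, at 461 CPM [443, 479] in cluster 5 and 358 CPM [345, 371] in cluster 3, then in cluster 1 at 222 CPM [213, 231]. In vehicle cluster 1 led, at 51.6 CPM, while clusters 0 and 2 had 6.52 and 2.95 CPM. Vehicle barcodes of 1 to 100 UMIs held 21.5 CPM of Ctsk, above the level of the vehicle macrophage-like class. Within the shared clusters the ratio was 1.18 [0.91, 1.45] in cluster 0, 1.91 [1.73, 2.097] in cluster 1 and 1.86 [1.54, 2.18] in cluster 2. Against the 559 vehicle cells with Xist and no Y-linked UMI the class-wide ratio was 2.33. In clusters 0 and 2 the takinib levels were 27.3 CPM [21.4, 34.3] and 37.0 CPM [28.7, 47.0]. Takinib cells of other classes also held Ctsk, at 19.7 CPM in B-like, 13.4 CPM in neutrophil-like and 10.97 CPM in T-like cells. Cluster 1, at 222 CPM, stood further above these classes than clusters 0 and 2. Few cells carried the signal: in cluster 5, 78.2% of cells had no Ctsk UMI and the top 10% of cells held 95.3% of the counts, with up to 274 UMIs in 1 cell.

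The transcription factor and the receptor at the head of the programme differed by less than 2-fold over the class. Nfatc1 had macrophage-like levels of 35.3 CPM [32.9, 37.9] and, with takinib, 29.2 CPM [27.7, 30.9] (-0.21 [-0.31, -0.11]), and 23.7 to 42.5 CPM in the cluster and library units of at least 100 cells. Tnfrsf11a (chromosome 1, 105780718 to 105847981) was at 25.8 CPM [23.8, 28.1] and 28.5 CPM [26.9, 30.1] (0.10, with an interval that included 0), and 15.4 to 45.8 CPM over the same units. Within clusters 0, 1 and 2 the Nfatc1 ratio was 0.06 [-0.18, 0.30], 0.15 [-0.10, 0.39] and 0.34 [0.02, 0.65]. The lower Nfatc1 level over the class was thus not found within the shared clusters. In the same clusters Tnfrsf11a was higher in takinib by 0.31 [0.07, 0.56], 0.46 [0.19, 0.72] and 0.57 [0.27, 0.88]. The highest Tnfrsf11a level outside the myeloid classes was 77.9 CPM [57.5, 103] in a vehicle epithelial-like cluster led by Spink4 and Muc2, genes of mucus-secreting cells. Its ligand gene Tnfsf11 had 4 UMIs in vehicle and 7 UMIs in takinib macrophage-like cells. In fibroblast-like cells Tnfsf11 stood at 3.33 CPM [1.52, 6.31] with vehicle and 50.0 CPM [43.0, 57.9] with takinib, on 9 and 178 UMIs; in T-like cells it stood at 28.1 CPM [13.5, 51.6] and 2.29 CPM [0.742, 5.33]. Tnfrsf11b, the gene of the decoy receptor osteoprotegerin, was level in fibroblast-like cells at 34.7 and 34.6 CPM.

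Over macrophage-like cells 2 of the 7 genes were higher in takinib by more than 2-fold (Ctsk and Atp6v0d2) and 1 of 7 was lower (Dcstamp), where 225 of 11910 genes (1.89%) were higher and 141 (1.18%) lower; the median ratio was -0.21 over the 7 genes and -0.01 over all 11910. Within cluster 0 the members past 2-fold were again Ctsk and Atp6v0d2 above and Dcstamp below, beside 0.826% of genes higher and 0.734% lower. Within cluster 1, Ctsk was above and Dcstamp below (all genes: 0.748% and 0.683%), and the same held in cluster 2 (all genes: 1.28% and 1.31%). As the genes were chosen with these levels known, nothing is read from those counts.

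**Figure D3:**
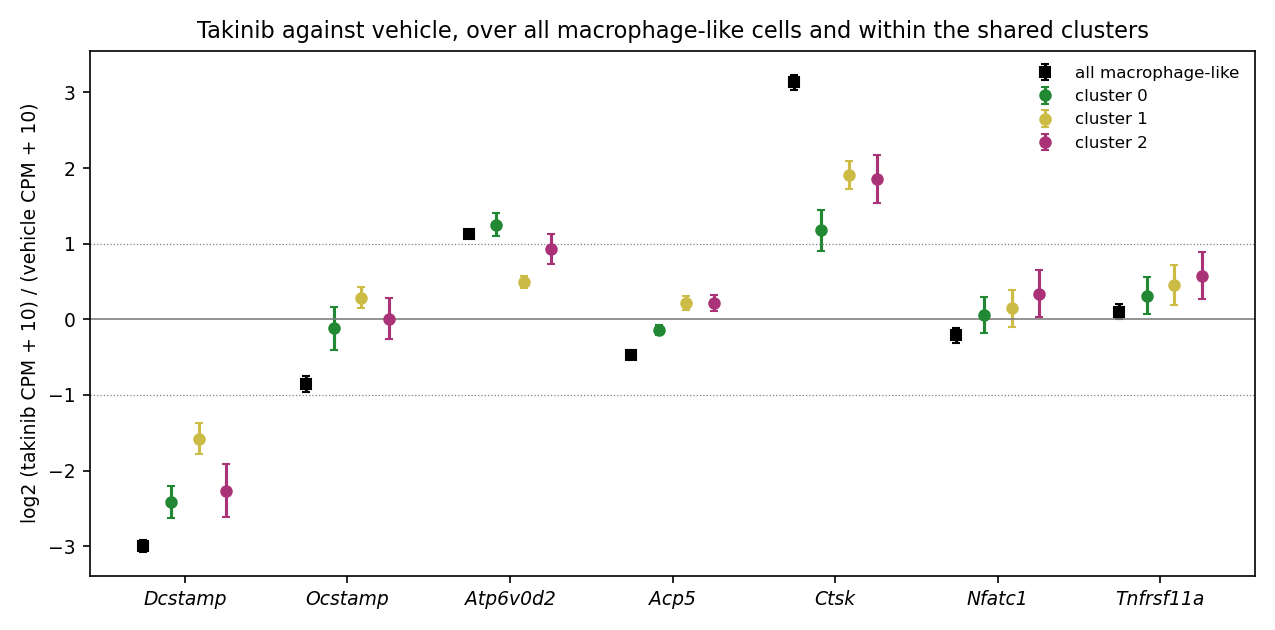
Log2 ratio of takinib to vehicle CPM, with 10 CPM added to both (vertical axis), for each gene over all macrophage-like cells and within clusters 0, 1 and 2; bars are 95% intervals for counting error and dotted lines mark 2-fold. Dcstamp lies below -1 and Ctsk above 1 in all 4 units, while Ocstamp and Acp5 lie nearer to 0 within the clusters than over the class.

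It was also asked how often the genes met in the same macrophage-like cell. With each cell thinned to 1000 UMIs, 18.0% of vehicle cluster 0 cells had UMIs of at least 2 of the 7 genes, where the product of the separate shares gives 17.0%, and 1.84% had at least 3, where it gives 1.77%. In takinib cluster 1 the shares of cells with at least 2 were 20.3% and 19.97% by the product, in takinib cluster 5 they were 12.9% and 11.8%, and in takinib cluster 4 they were 5.07% and 4.19%. For at least 3 genes the observed share stood further above the product in vehicle cluster 1 (2.18% and 1.29%), takinib cluster 3 (2.11% and 1.53%) and takinib cluster 4 (0.344% and 0.194%). In vehicle cluster 2 the observed share stood below the product (0.307% and 0.447%). Atp6v0d2 and Ctsk met in 55 cells of takinib cluster 3, where the product gives 27.6. They met in 33 cells of cluster 5 against 16.3, and in 91 of cluster 1 against 60.1. This pair had the highest ratio of observed to product in each of these clusters (1.99, 2.02 and 1.51). Only pairs for which the product gives at least 10 cells were compared. Their median ratios were 1.07, 1.20 and 0.98 in clusters 3, 5 and 1, and their lowest 0.81, 1.18 and 0.79. The cells of a cluster share 1 library, and no test was made. Without thinning, all 3 of Dcstamp, Ocstamp and Atp6v0d2 were seen together in 21 of 2939 vehicle cells of cluster 0. Of 8 further osteoclast markers, Oscar had 1 UMI in each library over all macrophage-like cells, Calcr 0 and 4, and Itgb3 1.57 and 1.77 CPM. Tcirg1, a proton pump subunit gene, was at 228 and 187 CPM, with a UMI in 57.7% and 64.1% of cells, the chloride transporter gene Clcn7 at 42.7 and 42.2 CPM, Ckb at 16.4 and 22.4 CPM and Car2 at 10.3 and 11.9 CPM. The gelatinase gene Mmp9, also a neutrophil gene, stood at 14.4 CPM with vehicle and 117 CPM with takinib.

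A small set of takinib cells carried most or all of the 7 genes together. In all, 10 of 25183 takinib cells, and none of the 9558 vehicle cells, had at least 50 UMIs of both Ctsk and Acp5. This cut-off was set after the values were seen. The takinib share was 0.0397% [0.0190, 0.0730] (Clopper-Pearson), and 0 of 9558 allows up to 0.0314% by 3 counts and 0.0386% by Clopper-Pearson. The takinib interval reached below both limits. A difference between the libraries was not tested, and with 1 library per group none is read from these shares. The 10 cells had 5740 to 20434 UMIs (median 14852.5), 76 to 290 Ctsk UMIs and 71 to 231 Acp5 UMIs. By cluster, 7 lay in the dendritic-like, 2 in the monocyte-like and 1 in a macrophage-like cluster, so the set had no cluster of its own, and no further such cell was among the barcodes removed as doublets. Outside the set, 35 takinib cells had at least 50 Ctsk UMIs with at most 20 of Acp5, and 3 had at least 50 Acp5 UMIs with fewer of Ctsk. Of the 5 members that did not choose the cells, Nfatc1 was present in all 10 with 3 to 17 UMIs, and at 663 CPM [536, 811] against 29.1 CPM in the other 6338 takinib macrophage-like cells. Atp6v0d2 was present in all 10 (5 to 22 UMIs), Tnfrsf11a in 9, Dcstamp in 8 (up to 19 UMIs) and Ocstamp in 7 (up to 6 UMIs); all 7 genes were detected together in 5 of the 10 cells and in none of the 6338, whose median depth was lower (6184.5 UMIs); the part of depth in this was not tested. Ocstamp stood at 148 CPM [91.7, 226] against 2.06 CPM, and Dcstamp at 268 CPM [190, 368] against 17.1 CPM.

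**Figure D4:**
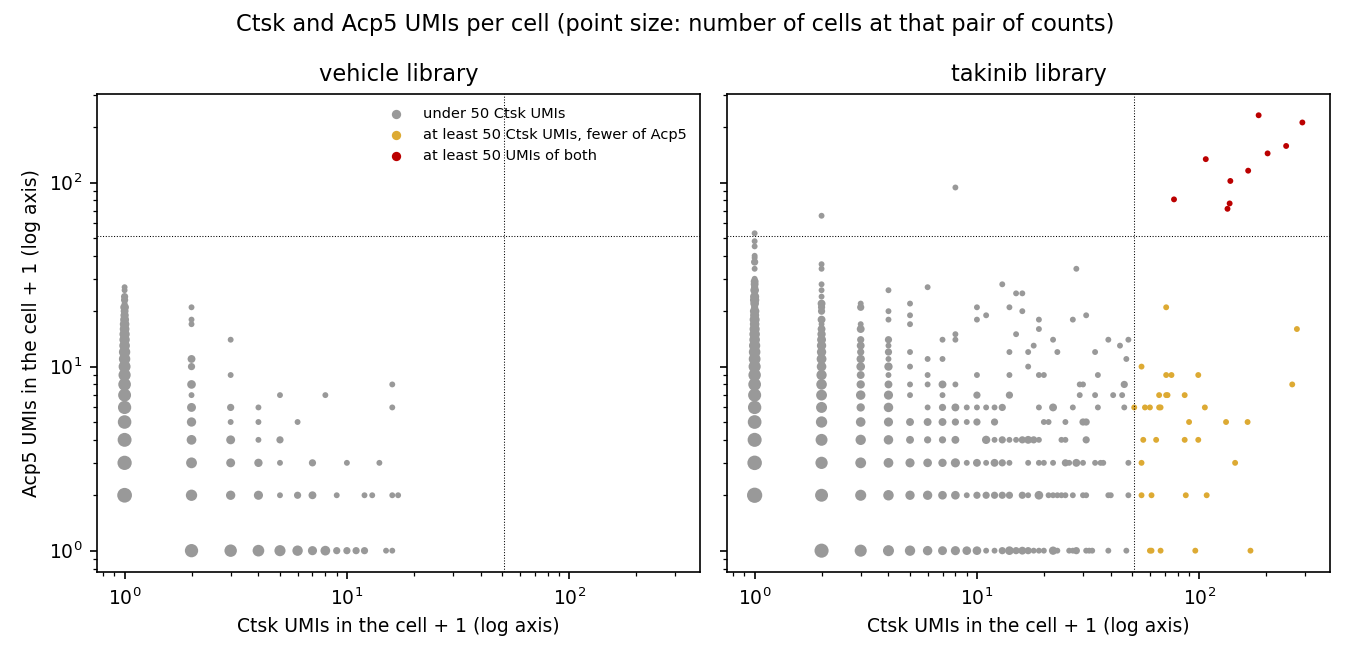
Ctsk UMIs (horizontal axis) against Acp5 UMIs (vertical axis), 1 added to each, on log axes, for cells with a UMI of either gene in the vehicle (left) and takinib (right) libraries; point size grows with the number of cells at that pair of counts and dotted lines mark 50 UMIs. The 10 takinib cells at the upper right have at least 71 Acp5 UMIs, apart from the 35 cells at the lower right with at most 20.

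The cell with the most Ctsk had 290 Ctsk, 211 Acp5, 248 Mmp9, 19 Dcstamp, 4 Ocstamp, 18 Atp6v0d2, 17 Nfatc1 and 3 Oscar UMIs among 20434. Mmp9, which osteoclasts secrete to digest matrix, had 74 to 248 UMIs in each of the 10 cells (9360 CPM [8864, 9878] against 116 CPM in the other takinib macrophage-like cells). Oscar, an osteoclast co-receptor gene, had 8 UMIs in 4 of the 10 cells and 1 UMI in the 6338 others; Siglec15, another receptor gene of osteoclasts, had 6 UMIs in 4 cells and 1 in the others. Slc9b2, a sodium-proton exchanger gene known from osteoclasts and named here after its values were seen, had 25 UMIs in 9 cells and 6 UMIs in the 6338. Calcr, the calcitonin receptor gene, had no UMI in the 10 cells, and Itgb3 had 3. Some macrophage genes were low: C1qa had 2 UMIs (14.1 CPM against 1302 CPM) and the lysozyme gene Lyz2 stood at 374 CPM against 10668 CPM. The class II gene H2-Ab1 stood at 28.2 CPM against 445 CPM. Others were not: the macrophage marker Cd68 was higher, at 1065 CPM against 496 CPM. Csf1r, the receptor gene of the growth factor M-CSF, was present in all 10 cells, at 360 CPM against 433 CPM. The dendritic cell gene Flt3 had no UMI in the 10 cells. S100a8, a neutrophil gene, had 0 to 344 UMIs per cell. The erythroid-like and neutrophil precursor clusters described above were found in the same library as these cells, and their part in this set was not tested.

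The lists of related genes were read in the same way, 10 cells against the other takinib macrophage-like cells. A gene needed at least 20 counts observed or expected in the 10 cells. Of 1281 genes, 22.6% were then higher by more than 2-fold and 19.4% lower. Genes low in the other cells could pass this minimum only by being high in the 10 cells. Of the acid secretion list, which holds subunits of the proton pump and partners, 13 of 16 measured genes were higher and 0 lower. Among them Atp6v1b2 stood at 1270 CPM [1091, 1469] against 219.8 CPM and Atp6v1a at 1072 CPM against 201 CPM. Tcirg1, which encodes the pump subunit lost in a form of osteopetrosis, stood at 642 CPM [517, 788] against 186 CPM. Car2, carbonic anhydrase 2, stood at 282 CPM [202, 384] against 12.0 CPM and passed the minimum only through the 10 cells. Of list genes under the minimum, Atp6v0a1 had 0 CPM against 59.9 CPM and Ostm1 28.2 CPM against 45.1 CPM. Clcn7, Slc4a2 and Plekhm1, also under the minimum, stood higher in the 10 cells. Of the transcription factors, Fosl2 and Prdm1 were higher and Fos lower among 4 measured; Prdm1, which silences repressors of osteoclast formation, stood at 226 CPM [154, 319] against 19.9 CPM. Of the repressors, Id2 and Rbpj were lower. Of the fusion and adhesion list 1 of 9 was higher (Itgav, 409 CPM against 50.3 CPM) and 4 were lower, among them Itgam at 35.3 CPM against 605 CPM. Of the proteases, Mmp9 and Mmp14 were higher and 7 of 11 were lower, including the common lysosomal genes Ctsb and Ctsd. All 5 measured genes of the list of interleukin-4 giant cells (Arg1, Chil3, Mrc1, Ccl2, Tgm2) were lower.

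A second set of takinib cells had many Ctsk UMIs with few of Acp5. The 35 cells with at least 50 Ctsk UMIs and fewer of Acp5 (0.139% of takinib cells [0.0968, 0.193], 0 in vehicle) lay in clusters 3 (16 cells), 5 (12) and 1 (7), had a median of 4 of the 7 genes detected (6.5 in the 10 cells, 2 in the other 6338) and held 28.5% of the library's Ctsk UMIs, against 14.8% in the 10 cells. Their Mmp9 was 37.6 CPM, Nfatc1 37.6 CPM, Dcstamp 5.37 CPM and Ocstamp 1.79 CPM, and Oscar and Car2 had no UMI. Gpnmb, a lysosomal glycoprotein gene of lipid-laden macrophages, was 7079 CPM in them and 141 CPM in the 10 cells; Trem2 was 787 and 28.2 CPM, Mmp12 4294 and 21.2 CPM, and Lyz2 15250 and 374 CPM. Atp6v0d2 was alike in both sets, at 873 CPM [797, 954] and 839 CPM [695, 1004]. Leaving out cells with at least 50 Ctsk UMIs, the macrophage-like Ctsk ratio was 2.48 instead of 3.14, and that of Atp6v0d2 1.09 instead of 1.12.

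**Figure D5:**
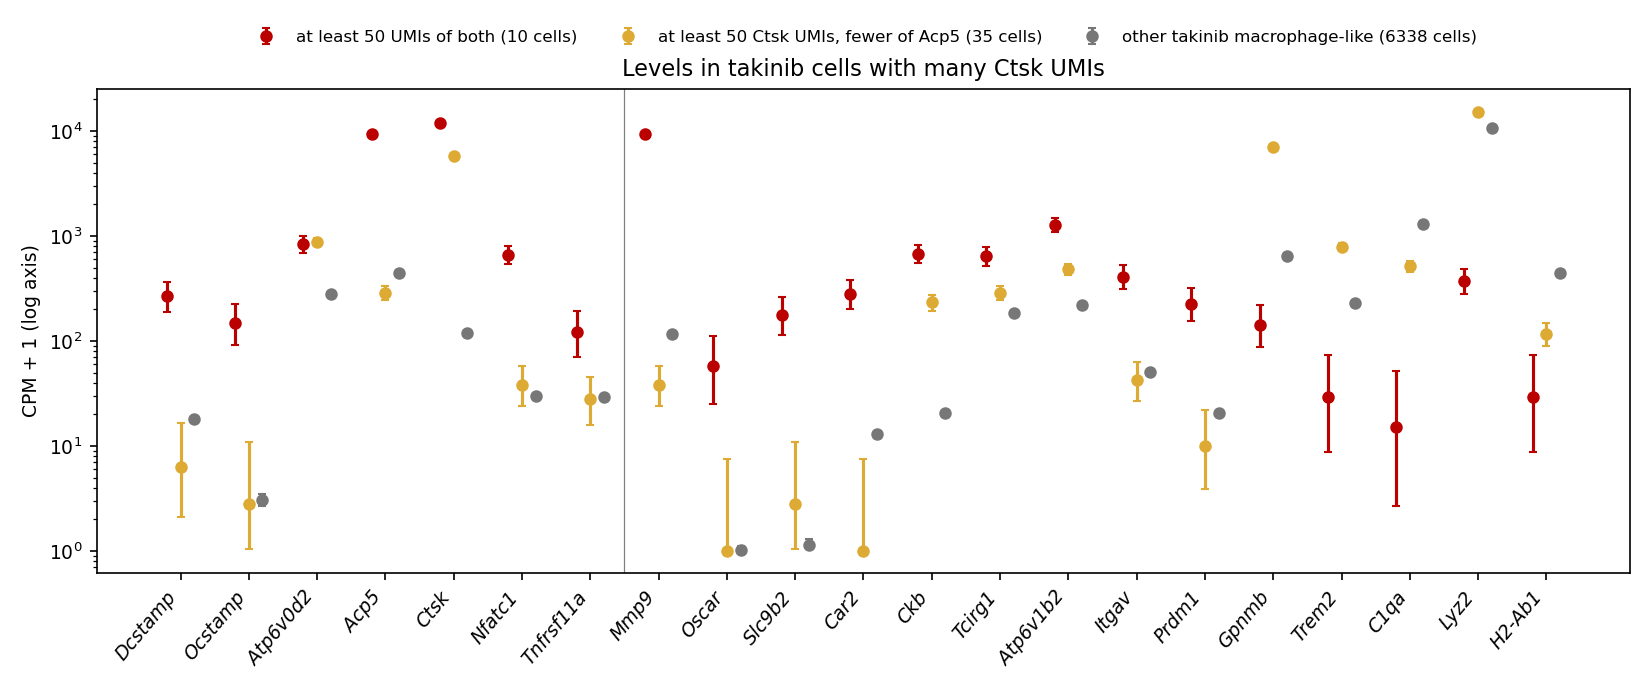
Level of the 7 genes (left of the line) and of 14 further genes in CPM, with 1 added, on a log axis, in the 10 takinib cells with at least 50 UMIs of both Ctsk and Acp5, the 35 with at least 50 Ctsk UMIs and fewer of Acp5, and the other 6338 takinib macrophage-like cells; bars are exact Poisson 95% intervals. Mmp9 is 9360 CPM in the 10 cells and 37.6 CPM in the 35, while Gpnmb is 141 and 7079 CPM.

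Ctsk and Acp5 were the genes by which the 10 cells were chosen, so the bases before their start sites are shown, from RefSeq tables on GRCm38.p6; the submitters' processing notes name mm10, the same assembly. Such windows were at hand for 3 of the 7 genes (Ctsk, Acp5 and Tnfrsf11a), and Acp5 had 3 starts, of which the third, with the most motif matches, is printed. The Ctsk window is chr3:95498960-95499209 on the plus strand, and the Acp5 window is chr9:22130609-22130848 on the minus strand, with 10 bases of annotated exon left off. Capitals mark matches, on either strand, to GGAAA (core of NFAT sites) and CACATG (a box bound by MITF and TFE factors); TGANTCA (AP-1 site) was searched too.
Ctsk: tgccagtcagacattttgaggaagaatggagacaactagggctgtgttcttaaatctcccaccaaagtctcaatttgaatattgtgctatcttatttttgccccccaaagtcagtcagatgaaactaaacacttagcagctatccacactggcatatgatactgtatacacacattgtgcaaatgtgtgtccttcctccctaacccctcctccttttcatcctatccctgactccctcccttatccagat
Acp5: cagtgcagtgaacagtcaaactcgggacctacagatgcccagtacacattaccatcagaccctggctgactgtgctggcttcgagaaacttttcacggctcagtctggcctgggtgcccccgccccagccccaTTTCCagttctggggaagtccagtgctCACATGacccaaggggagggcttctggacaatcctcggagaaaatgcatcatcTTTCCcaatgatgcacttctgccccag
The printed Acp5 window held 2 matches to GGAAA and 1 to CACATG, and the Ctsk window none of the 3 motifs. Among all 32851 windows of up to 250 bases, 55.6% held GGAAA, 12.3% held CACATG and 6.75% held TGANTCA. The other Acp5 starts held 1 GGAAA match each and no other, and Tnfrsf11a none. A match is a string of letters and not a measured binding site.

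Dendritic-like cells are the class in which the 10 cells weighed most. Ctsk there was 5.67 CPM in vehicle (3 UMIs in 189 cells) and 1892 CPM in takinib (1266 UMIs in 127 cells), and Acp5 was 58.6 and 1578 CPM. Without the 7 cells of the set, takinib Ctsk was 62.8 CPM on 36 UMIs and Acp5 157 CPM on 90 UMIs, and the log2 ratios fell from 6.92 to 2.21 and from 4.53 to 1.28. Atp6v0d2 and Ocstamp, at 136 and 38.9 CPM with those cells, were at 13.9 and 19.2 CPM without them, against 18.9 and 20.8 CPM in vehicle. Dcstamp without them was 17.4 CPM on 10 UMIs against 119 CPM in vehicle, the same direction as in macrophages.

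The other lists were read over all macrophage-like cells against the same 1.89% of genes higher and 1.18% lower. None of the 4 measured receptor and adaptor genes, the 9 signalling genes below RANK, the 13 transcription factors, the 5 repressors or the 21 acid secretion genes was past 2-fold; their median ratios were 0.06, 0.01, 0.28, -0.02 and 0.14. Among the signalling genes the ends were Src at -0.83 and Tec at -0.33, both kinases, and Traf6 at 0.20 and Syk at 0.17. Among the factors Fos stood at 0.66 and Fosl1 at 0.61, and Tfeb and Prdm1 at -0.23 and -0.20. Irf8, a repressor, was at -0.55 and Bcl6, another, at 0.40. Of 12 fusion and adhesion genes 2 were higher, Itgam (156 and 602 CPM) and Adam8 (54.9 and 174 CPM), and 1 was lower, the tetraspanin gene Cd81 (356 and 146 CPM). Of 12 proteases and lysosomal genes Mmp9 and Ctsl (698 and 1611 CPM) were higher. Of 10 genes of interleukin-4 giant cells Chil3 (2702 and 7740 CPM) and the chemokine gene Ccl2 (68.3 and 176 CPM) were higher and Retnla (100.5 and 38.5 CPM) lower. Itgam, Adam8 and Mmp9 are also neutrophil genes, and neutrophil markers moved with them as given above; their part was not tested.

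Over the 9 cluster and library units with at least 100 macrophage-like cells, the level of each gene was set beside those of 10229 others by Pearson correlation of log2 values, as a description without p; the units share libraries. Ocstamp ran with Ciita (r = 0.98), the class II transactivator gene, and Cd74 (0.97), and with Bmf (0.96). Ctsk ran with the pump subunit gene Atp6v1a (0.99), Gpnmb (0.98) and the scavenger receptor gene Cd36 (0.97), and Atp6v0d2 with Il18 (0.98), Vat1 (0.97) and Psen2 (0.97). Dcstamp ran with Tmem86b (0.96), Pank4 (0.95) and Igsf9 (0.95), Acp5 with Extl3 (0.96) and Abr (0.94), Nfatc1 with Smarce1 (0.97), Slc22a5 (0.97) and Phf14 (0.96), and Tnfrsf11a with Tmem37 (0.98), Slc37a2 (0.98) and Tm9sf2 (0.97). Among the 7 genes themselves r was highest for Ocstamp with Acp5 (0.87) and Atp6v0d2 with Ctsk (0.82) and lowest for Dcstamp with Ctsk (-0.77).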

How the data were processed

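Per the labels, 10x single-cell libraries of dissociated KPPC tumours were sequenced. The authors deposited unnormalized UMI counts; per the file headers these were made with Cell Ranger 4 (vehicle) and 6.1.1 (takinib), while the submitters' processing notes name Cell Ranger 2.1.1 and mm10. The chemistry is not given in the sources used here. The vehicle table lists 704261 barcodes, empty ones included, and the takinib one lists 34158 barcodes, each with at least 500 UMIs, so free RNA could be read only in vehicle.

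Barcodes were kept with at least 1000 UMIs, 500 genes and at most 20% mitochondrial UMIs. Scrublet removed 314 vehicle doublets by its automatic threshold; in takinib that threshold marked 0.00373%, so the top 6% by score (1607 cells) were taken out. The kept cells held 42000538 (vehicle) and 119726977 (takinib) UMIs. Cells were clustered with scanpy 1.11.5 (2000 variable genes without the 7 genes and the list genes, 30 components, 15 neighbours, Leiden resolution 1). Names came from fixed markers; the scoring rule was set after the data were seen. Counts were summed per cluster or class and library and scaled to CPM; log2 ratios add 10 CPM, and genes needed 50 summed counts in 1 library. Intervals are exact Poisson (levels), Clopper-Pearson (shares) and delta-method (ratios). The calculation was tested on simulated data. No test was run.

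The members and lists were chosen with earlier results of these data known. Named are the 7 genes, of each list the 2 highest and 2 lowest ratios, and the 3 genes most like each member; other genes were chosen after their values were seen. Some genes that this rule names are not reported here. Alternatives covered pseudocount, thinning, filters, doublets, centring, sex, resolution, naming and cells left out.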

Additional observations from a re-analysis of the deposited data

Results flagged for a closer look

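Ctsk differed in opposite directions between cell classes. Its log2 ratio of takinib to vehicle was 6.92 in dendritic-like cells (189 vehicle and 127 takinib cells) and -1.85 in fibroblast-like cells (642 and 315 cells). The difference between the classes was not tested, since each treatment is 1 library. Of the 1266 takinib Ctsk UMIs in dendritic-like cells, 1261 lay in the 77 cells without Ccr7, Fscn1, Xcr1 or Clec9a UMIs, and without the 7 cells that had at least 50 UMIs of both Ctsk and Acp5 the ratio was 2.21.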

How the results depend on the processing

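No paired analysis was possible because each group is 1 library. In macrophage-like cells Dcstamp stayed below -1 in all 16 alternatives (-3.52 to -1.79) and Ctsk above 1 in all 16 (1.65 to 3.79). Atp6v0d2 was above 1 in 11 of 16, above 0 in 15, and turned to -0.31 against vehicle cells with Xist and no Y-linked UMI, where Acp5 turned to 0.051. Ocstamp was below -1 in 1 of 16, at -2.06 with 1 CPM added. As a mean within the shared clusters, Ocstamp turned to 0.058, Acp5 to 0.10, and Nfatc1 and the median of the 7 genes to 0.18. With cells of over 3 neutrophil or collagen UMIs left out (4791 vehicle and 1405 takinib cells remained), Nfatc1 and the median of the 7 were 0.0096; the median was -0.11 with 50 CPM added and -0.041 after thinning. Genes higher and lower by more than 2-fold numbered 225 and 141; with 1 CPM added they were 561 and 505, with 50 CPM added 87 and 47, and within the shared clusters 51 and 55, where fewer genes and cells were tested. With the neutrophil or collagen cells left out 144 genes were higher. Monocyte-like cells added, cells with at least 50 Ctsk UMIs left out, and the dendritic-like class without such cells were chosen after seeing the data. Leaving out a replicate was not possible with 1 library per group.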
